A study of Felis catus with 15 samples.

Results

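Sperm leaving the testis mature on their way through the epididymis, a long coiled duct whose clear cells acidify the fluid around them. The 10 genes described here are linked to acid or base transport in such cells and were taken as a list of symbols. They are 5 subunits of the vacuolar proton pump whose use is restricted to few cell types (ATP6V1B1, ATP6V0D2, ATP6V1G3, ATP6V0A4 and ATP6V1C2), the transcription factors FOXI1 and DMRT2, and the transporters SLC4A9, SLC26A4 and RHCG. All 10 were present among the 38995 genes of the count table, and all 10 were among the 18038 genes with enough counts to be tested. No measured value entered the list itself, although earlier results of these data were known when it was drawn up.

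RNA was sequenced from the corpus, the middle stretch of that duct, in the domestic cat (Felis catus). There were 5 libraries of fresh tissue, 5 of explants kept in culture, and 5 of explants given extracellular vesicles (EVs) from the caput, the region upstream. These groups are called fresh, culture and vesicle culture below, and each library is named by its replicate number. The labels give no strain, age or breed, no vesicle dose, and no statement that the replicates are separate animals, so p-values reflect the spread among these libraries, which may be technical. The label codes D0 (fresh) and D3 (both cultures) are used here as names of groups, since their meaning was not given in the sources used here.

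Clear cells resemble the intercalated cells of the kidney. In both, the vacuolar proton pump (V-ATPase) moves protons across the luminal membrane, a cytosolic carbonic anhydrase supplies them, and anion exchangers carry the bicarbonate that is left. The pump has a cytosolic V1 domain that splits ATP and a membrane V0 domain that passes protons, and several subunits come as a ubiquitous isoform and a restricted one that marks acid-secreting cells. FOXI1 is the forkhead factor that switches on restricted pump subunits and anion exchangers in intercalated cells.

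Total counts were 17308832 to 27420218 per library. Mitochondrial protein genes took 8.69% to 11.4% of counts in fresh tissue, 6.40% to 7.26% in vesicle culture and 6.23% to 7.48% in culture, except in culture 3, where they took 0.179%. Results that change without culture 3 are given both ways. Markers of other cells also moved between groups. Of 9 tested principal cell markers 8 fell in culture, with a summed level of 18210 to 22053 CPM (counts scaled to a common library size, a standard unit of RNA-seq) in fresh tissue and 1019.9 to 3324.5 CPM in culture, while 7 of 7 basal cell markers rose, from 368 to 653 CPM up to 2120.3 to 6973.7 CPM. Summed fibroblast markers were 483 to 1804.5 CPM in fresh tissue and 1075.4 to 12584 CPM in culture, with 3 of 6 called higher, or 5 without culture 3. Of all tested genes, 28.7% were called higher in culture and 25.6% lower. In bulk tissue, fewer cells of a type and less RNA per cell cannot be told apart, and the part of these shifts in the results below was not tested.

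The 10 listed genes went both ways in culture, as tested genes in general did. Against fresh tissue, 5 of the 10 passed the test in culture (edgeR's quasi-likelihood test, Benjamini-Hochberg adjusted p under 0.05), 2 higher and 3 lower. The anion exchanger SLC26A4 and the ammonia transporter RHCG rose, and the pump subunits ATP6V1B1 and ATP6V1C2 and the anion exchanger SLC4A9 fell. Of all tested genes, 54.3% passed in this comparison, 28.7% higher and 25.6% lower, so that 5 of 10 is near the share of genes in general. The median log2 fold change was -0.69 over the members and 0.04 over all tested genes. In vesicle culture against fresh tissue 4 members passed, the same genes less SLC4A9, where 52.9% of all genes did, 27.4% higher and 25.5% lower. Medians there were -0.57 over the members and 0.01 over all genes. Both comparisons share the fresh libraries. These fits carry no block. With the replicate number as a block, ATP6V0A4 and DMRT2 also passed in culture, both lower (edgeR adjusted p = 0.0214 and 0.0414). In that fit 57.9% of all tested genes passed. In vesicle culture the block added SLC4A9, lower (edgeR adjusted p = 0.0276), where 57% of all genes passed. Adding vesicles to the culture changed no member past the threshold.

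**Figure D1:**
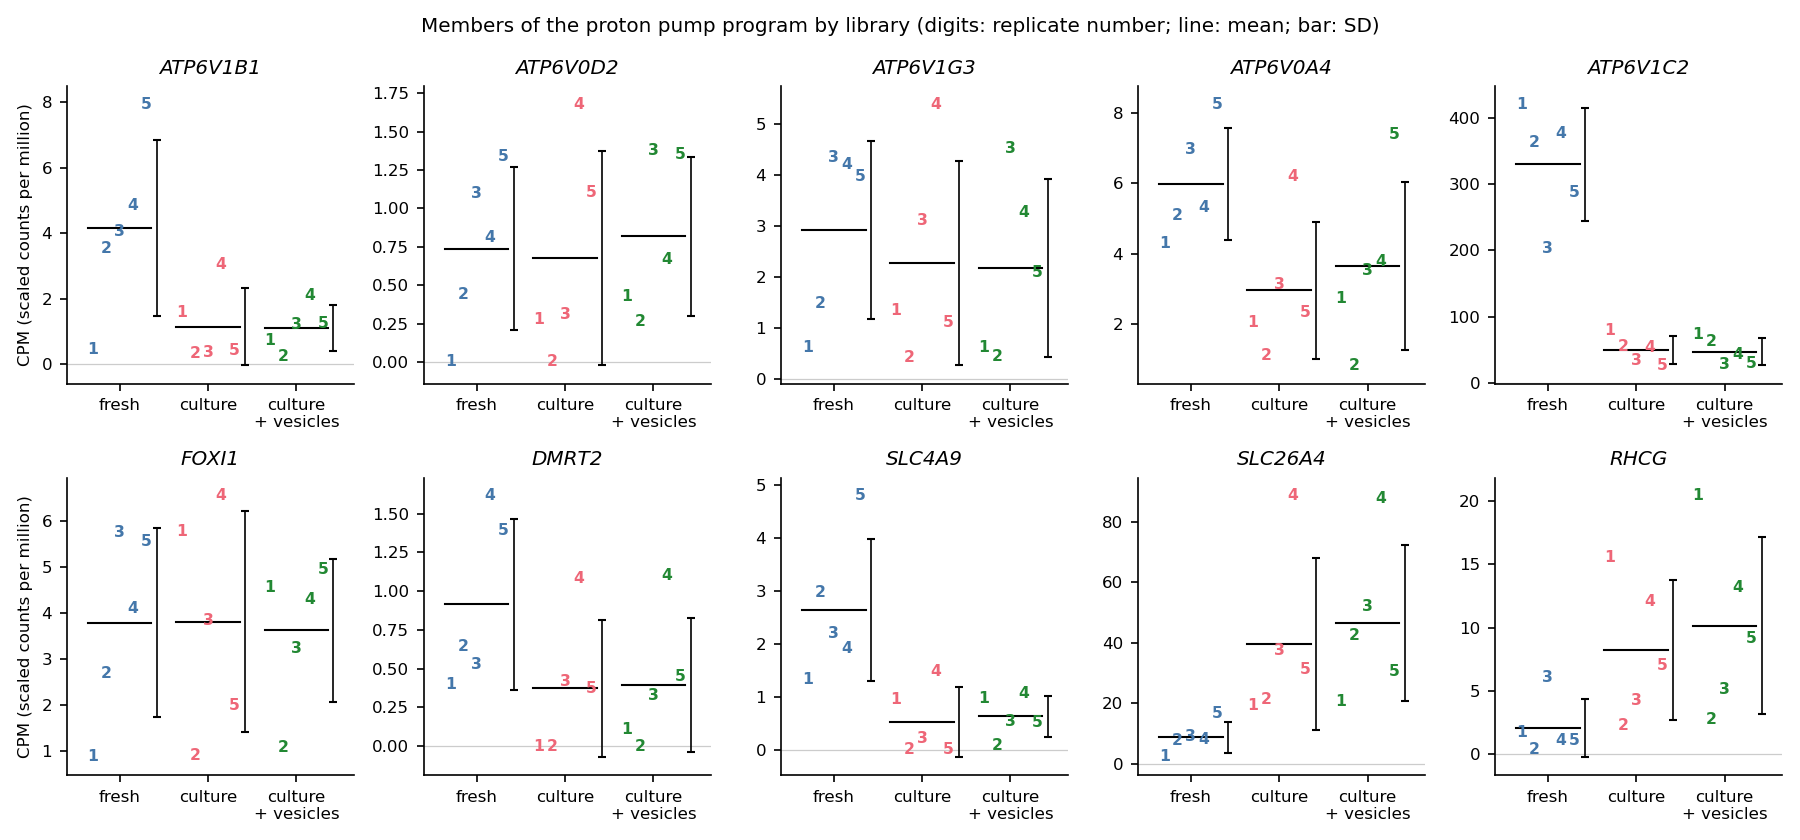
Level of each of the 10 genes in every library, in CPM on the vertical axis of each panel (linear, its own scale), with the group on the horizontal axis. Digits are replicate numbers, lines are group means and bars are SDs (n = 5). ATP6V1C2 is lower in all 10 cultured libraries than in the 5 fresh ones and SLC26A4 is higher in all 10, while FOXI1 spans 0.878 to 5.77 CPM in fresh tissue and 0.914 to 6.56 CPM in culture.

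The pump subunits are taken first. ATP6V1C2 (gene ID 101086301) encodes the restricted C subunit of the stalk that holds the V1 domain. Its level was 420, 363, 203, 375 and 287 CPM in fresh 1 to 5, 79.2, 54.5, 34.4, 53.2 and 26.6 CPM in culture 1 to 5, and 72.4, 62.8, 28.2, 42.6 and 29.1 CPM in vesicle culture 1 to 5. Every cultured library lay below every fresh one. The mean fell from 329.6 ± 85.6 CPM to 49.6 ± 20.5 CPM in culture (SD, n = 5), a log2 fold change of -2.73 ± 0.34 (SE, adjusted p = 8.38e-06, edgeR), or 6.64-fold, and to 47.0 ± 19.9 CPM in vesicle culture (-2.81 ± 0.34, adjusted p = 6.56e-06).

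ATP6V1C2 shares genome sequence with a neighbour. Its gene overlaps PDIA6, an enzyme of protein folding in the endoplasmic reticulum, which collected 124847 counts over the fresh libraries against 35284 for ATP6V1C2. With the strand setting of the counting not given, reads of the pair cannot be told apart with certainty. PDIA6 also fell in culture, by less (-1.63 ± 0.18, adjusted p = 2.41e-06). The counts of ATP6V1C2 were 14.8% to 27.02% of those of the pair in fresh libraries, 5.88% to 21.2% in culture and 7.92% to 19.4% in vesicle culture. The mean log2 ratio of ATP6V1C2 to PDIA6 was 1.12 lower in culture than in fresh tissue (-2.96 ± 0.86 against -1.84 ± 0.44, SD, n = 5), with overlapping groups (exact permutation p adjusted over 3 comparisons 0.0833, chosen after the values were seen).

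ATP6V1B1 (101098295), the restricted B subunit of the ring that splits ATP, is a common marker of clear cells. It stood at 0.439, 3.53, 4.05, 4.85 and 7.94 CPM in fresh 1 to 5, from 10 to 154 counts. In culture 1 to 5 it was 1.58, 0.320, 0.363, 3.04 and 0.422 CPM, and in vesicle culture 1 to 5 it was 0.714, 0.217, 1.21, 2.09 and 1.24 CPM. Fresh 1 lay within the cultured range, and the other four fresh libraries lay above every cultured one. The log2 fold change was -1.84 ± 0.75 in culture (adjusted p = 0.0490) and -1.92 ± 0.75 in vesicle culture (adjusted p = 0.0424).

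The ATP6V1B1 call in culture was a narrow one. It held without fresh 1, culture 4, vesicle culture 2 or vesicle culture 4, and was lost without any 1 of the other 11 libraries, at adjusted p from 0.0555 to 0.130. The log2 fold change was -1.47 without fresh 5 and -2.60 without culture 4. It was also lost with limma-voom and sample weights (-1.12, adjusted p = 0.261), with no filter on low counts (adjusted p = 0.0639) and with only the 2 groups in the fit (adjusted p = 0.0643). It held with DESeq2 (adjusted p = 0.0183) and with the replicate number as a block in edgeR (-2.02, adjusted p = 0.0352). The other scalings and the filter at 1 CPM kept it as well (adjusted p 0.0405 to 0.0448). In vesicle culture the call was lost without fresh 2, 3, 4 or 5 or vesicle culture 1, 2, 3 or 5 (adjusted p 0.0560 to 0.114), with limma-voom (0.101) and with no filter (0.0557). There it held with DESeq2, the block, only the 2 groups, the other scalings and the filter at 1 CPM (adjusted p 0.01385 to 0.03874).

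ATP6V0A4 (101089593) encodes the restricted a subunit, which forms the path of the protons through the membrane. Levels were 4.30, 5.10, 6.95, 5.31 and 8.25 CPM in fresh 1 to 5, 2.05, 1.10, 3.12, 6.20 and 2.32 CPM in culture 1 to 5, and 2.71, 0.825, 3.52, 3.78 and 7.38 CPM in vesicle culture 1 to 5. Culture 4 and vesicle culture 5 reached into the fresh range, and the other cultured libraries lay below it. The log2 fold change was -1.01 ± 0.49 in culture, with a 95% interval from -2.06 to 0.03 (adjusted p = 0.0930), and -0.72 ± 0.49 in vesicle culture (adjusted p = 0.231). In culture it passed without culture 4 (-1.47, adjusted p = 0.0199) or vesicle culture 2 (adjusted p = 0.0491) and with limma-voom (adjusted p = 0.0476). With the replicate number as a block in edgeR it passed in culture as well (-1.18, adjusted p = 0.0214). The gene overlaps TMEM213, which had 274 counts in fresh tissue where ATP6V0A4 had 635.

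The remaining pump subunits gave few counts and wide intervals. ATP6V0D2 (101095399), the restricted d subunit that joins the rotor to the V0 ring, had 0 to 26 counts in fresh libraries, 0 to 42 in culture and 6 to 34 in vesicle culture. It was not detected in fresh 1 or culture 2, where 0 counts allow up to 0.132 and 0.137 CPM. Its log2 fold change in culture was -0.12 ± 0.91, with an interval from -2.06 to 1.83. ATP6V1G3 (101093576), the restricted G subunit of the stalk, ranged from 0.614 to 4.36 CPM in fresh tissue and from 0.411 to 5.40 CPM in culture, and its log2 fold change was -0.36 ± 0.73, with an interval from -1.91 to 1.19. With these counts and this spread between libraries, neither a 2.0-fold rise nor a 2.0-fold fall of these genes could be told from no change.

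**Figure D2:**
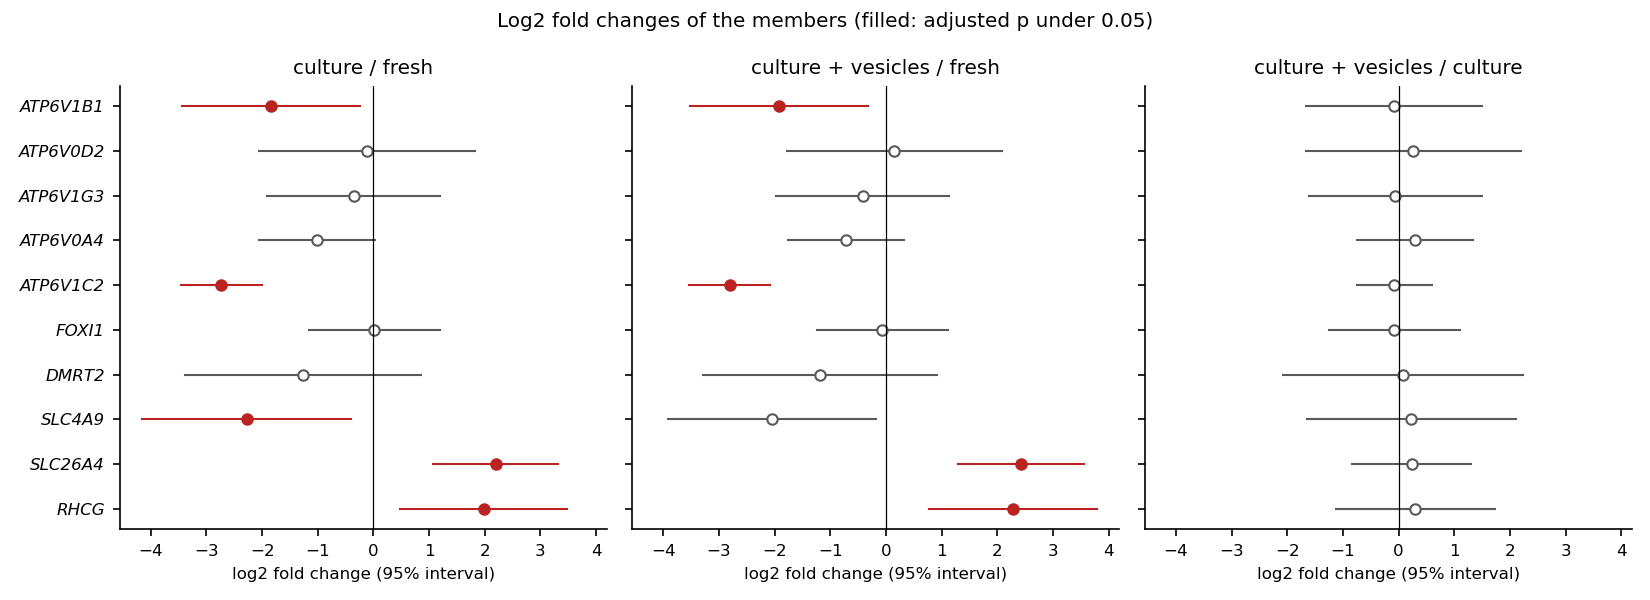
Log2 fold change of each gene in the 3 comparisons (horizontal axis, log2 scale), with lines for the 95% interval of each single test and filled points where the adjusted p is under 0.05. In culture against fresh tissue ATP6V1C2 stands at -2.73 and SLC26A4 at 2.19, FOXI1 lies at 0.01, and no point is filled in vesicle culture against culture.

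Neither transcription factor passed the test. FOXI1 (101097130) was at 0.878, 2.69, 5.77, 4.098 and 5.57 CPM in fresh 1 to 5, at 5.79, 0.914, 3.84, 6.56 and 2.00 CPM in culture 1 to 5, and at 4.57, 1.09, 3.24, 4.29 and 4.96 CPM in vesicle culture 1 to 5. The groups overlapped over nearly their whole range, with means of 3.80 ± 2.05, 3.82 ± 2.40 and 3.63 ± 1.56 CPM (SD, n = 5). The log2 fold change was 0.01 ± 0.55 in culture (interval -1.16 to 1.19, adjusted p = 0.986) and -0.07 ± 0.55 in vesicle culture (adjusted p = 0.932). The interval leaves room for a 2.0-fold change in either direction, and the sign of the culture value turned under 5 other settings.

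DMRT2 (101083374), a DM-domain transcription factor also found in intercalated cells, was the least counted member beside ATP6V0D2. It had 9 to 28 counts in fresh libraries and 0 to 28 in the cultured ones. Culture 1, culture 2 and vesicle culture 2 had 0, which allows up to 0.118, 0.137 and 0.130 CPM. The log2 fold change was -1.27 ± 1.00 in culture (adjusted p = 0.297) and -1.18 ± 0.99 in vesicle culture (adjusted p = 0.333), lower in 5 of 5 same-numbered pairs in both. With limma-voom the culture value passed the threshold (-2.90, adjusted p = 0.0421), and so it did in edgeR with the replicate number as a block (-1.92, adjusted p = 0.0414).

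The 3 transporters went in opposite directions. SLC26A4 (101095090), the chloride and bicarbonate exchanger pendrin that faces the lumen in base-secreting intercalated cells, was at 2.24, 7.59, 9.02, 8.02 and 16.5 CPM in fresh 1 to 5. It was at 19.2, 21.4, 37.6, 88.7 and 31.2 CPM in culture 1 to 5, and at 20.4, 42.2, 51.9, 87.8 and 30.6 CPM in vesicle culture 1 to 5. All 10 cultured libraries lay above the highest fresh one. SLC26A4 rose by a log2 fold change of 2.19 ± 0.53 in culture, or 4.57-fold (adjusted p = 0.00257), and by 2.43 ± 0.53 in vesicle culture, or 5.38-fold (adjusted p = 0.00132), and both calls held under every setting run.

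RHCG (101083517), which lets ammonia through the membrane, was at 1.71, 0.401, 6.03, 1.10 and 1.13 CPM in fresh 1 to 5 and at 15.6, 2.29, 4.26, 12.04 and 7.01 CPM in culture 1 to 5. Fresh 3 stood above culture 2 and culture 3, and the other fresh libraries lay below all of culture. Vesicle culture 1 to 5 held 20.4, 2.78, 5.14, 13.2 and 9.18 CPM. RHCG rose by a log2 fold change of 1.98 ± 0.71 in culture (adjusted p = 0.0266) and 2.28 ± 0.71 in vesicle culture (adjusted p = 0.0136). The first call was lost without culture 1, culture 4, fresh 1, fresh 2, fresh 4 or fresh 5 (adjusted p 0.0540 to 0.0726), and without fresh 3 the values were 2.92 and 3.22. An uncharacterised gene that overlaps RHCG, LOC109500494, went from 57 counts in fresh tissue to 231 in culture, beside 227 and 961 for RHCG.

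SLC4A9 (101091500), an anion exchanger of the basolateral membrane of base-secreting intercalated cells, fell. It was at 1.32, 2.97, 2.20, 1.90 and 4.79 CPM in fresh 1 to 5, 0.945, 0, 0.208, 1.48 and 0 CPM in culture 1 to 5, and 0.963, 0.0868, 0.526, 1.06 and 0.507 CPM in vesicle culture 1 to 5. The 0 counts allow up to 0.137 CPM in culture 2 and 0.158 CPM in culture 5. Only culture 4 reached into the fresh range, above fresh 1, and all 5 vesicle cultures lay below it.

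The log2 fold change of SLC4A9 was -2.28 ± 0.89 in culture (adjusted p = 0.0401) and -2.05 ± 0.87 in vesicle culture (adjusted p = 0.0605), the latter -2.51 with an adjusted p of 0.0276 when the replicate number was a block. The culture call was lost without fresh 2, 3 or 5 or culture 2, 3 or 5 (adjusted p 0.0544 to 0.0981), with no filter (0.0533) and with only the 2 groups fitted (0.0570), and the value was -3.12 without culture 4. That call held with DESeq2, limma-voom or the block (adjusted p 0.0160 to 0.0208), and with the other scalings and the filter at 1 CPM (0.0335 to 0.0368). In vesicle culture the gene passed with DESeq2, limma-voom or only the 2 groups fitted (adjusted p 0.00759 to 0.0314) and without culture 2, 4 or 5 (0.0361 to 0.0477). An uncharacterised gene overlapping SLC4A9, LOC102899826, had 313 counts in fresh tissue and 161 in culture, where SLC4A9 had 280 and 65.

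Within each library, the restricted isoform of a subunit can be read against its ubiquitous partner, which removes library size and scaling from the comparison. ATP6V0A4 counts were 7.63% to 13.1% of those of ATP6V0A4 and ATP6V0A1 together in fresh libraries, 1.05% to 4.93% in culture and 0.847% to 7.15% in vesicle culture. The fresh libraries all lay above the cultured ones. The mean log2 ratio was -3.29 ± 0.36 in fresh tissue, -5.26 ± 0.98 in culture and -5.22 ± 1.14 in vesicle culture (SD, n = 5), differences of -1.98 and -1.94 (exact 2-sided permutation p = 0.00794, the smallest that 5 against 5 can give, adjusted over 15 tests 0.0298 for each). ATP6V0A1 itself rose in culture (0.82 ± 0.17, adjusted p = 8.97e-04).

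The C subunits shifted in the same direction. ATP6V1C2 made up 81.2% to 90.9% of the counts of ATP6V1C2 and ATP6V1C1 in fresh libraries, 28.9% to 58.9% in culture and 29.6% to 55.0% in vesicle culture, again with no overlap. The log2 ratio fell from 2.74 ± 0.46 to -0.21 ± 0.71 and -0.52 ± 0.68, by 2.95 and by 3.26 (exact permutation p adjusted over 15 tests 0.0298 for each). The overlap with PDIA6 described above bears on these values too.

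For the B subunits the ratio of ATP6V1B1 to ATP6V1B2 was lower by 1.99 in culture and by 2.00 in vesicle culture on the log2 scale, and neither passed (exact permutation p adjusted over 15 tests 0.139 for both). Fresh 1, at -7.47, lay within the cultured values, and the other fresh libraries ran from -4.77 to -3.70. Without it both differences passed (adjusted p = 0.0397). The d and G pairs differed by at most 0.97 between any 2 groups and did not pass (adjusted p 0.899 to 0.992). For the a and C pairs, leaving out 1 library raised the adjusted p to 0.0595 in 9 of 10 cases for each ratio and comparison, with 4 against 5 libraries. The direction stayed, at -2.23 to -1.66 for the a pair and -3.13 to -2.67 for the C pair in culture.

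**Figure D3:**
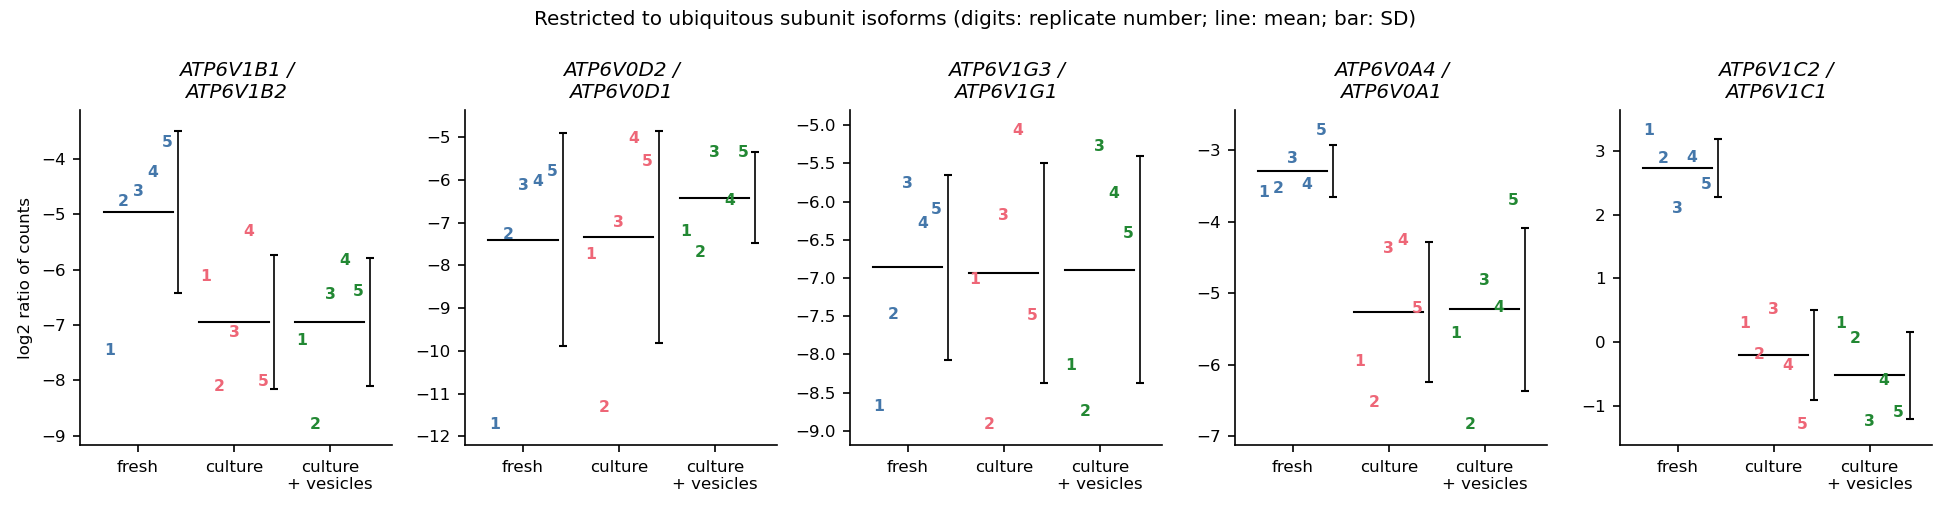
Log2 ratio of the counts of each restricted subunit to its ubiquitous partner in every library (vertical axis, log2), by group; digits are replicate numbers, lines means and bars SDs (n = 5). The fresh libraries lie above all cultured ones for ATP6V0A4 to ATP6V0A1 and for ATP6V1C2 to ATP6V1C1, and fresh 1 lies at -7.47 for ATP6V1B1 to ATP6V1B2.

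The level of FOXI1 varied 6.57-fold between fresh libraries, so each member was also read against FOXI1 of the same library. These ratios were chosen after the values were seen. SLC26A4 was higher than in fresh tissue relative to FOXI1, by 2.25 on the log2 scale in culture and 2.48 in vesicle culture. ATP6V1B1 was lower by 1.92 and 1.79, and SLC4A9 by 3.68 and 2.28. ATP6V0A4 was lower by 1.16 in culture. These 7 differences had no overlap between the groups, and each had an exact permutation p of 0.00794, adjusted over 27 tests 0.0306. Fresh 1, far from the others in ATP6V1B1 level, was at -0.97 in the ratio of ATP6V1B1 to FOXI1, where the other fresh libraries ran from -0.51 to 0.51 and the cultured ones from -3.31 to -1.03.

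Other differences from fresh tissue did not pass the test. RHCG was higher relative to FOXI1 by 2.27 in culture and 2.50 in vesicle culture, in 5 of 5 same-numbered pairs, and ATP6V1C2 was lower by 2.75 and 2.89 (exact permutation p adjusted over 27 tests 0.0584 for each). ATP6V0A4 was lower by 1.00 in vesicle culture (0.0893). DMRT2 was lower by 2.36 in culture (adjusted p = 0.0989, exact permutation test) and by 1.92 in vesicle culture (0.153), and the ATP6V1G3 and ATP6V0D2 ratios differed by 0.71 or less. With 1 library left out, the adjusted p of the 7 differences that passed ran from 0.0476 to 0.0612 and was over 0.05 in 9 of 10 cases for each, and with a pseudocount of 2 the SLC4A9 difference in culture was -2.82.

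**Figure D4:**
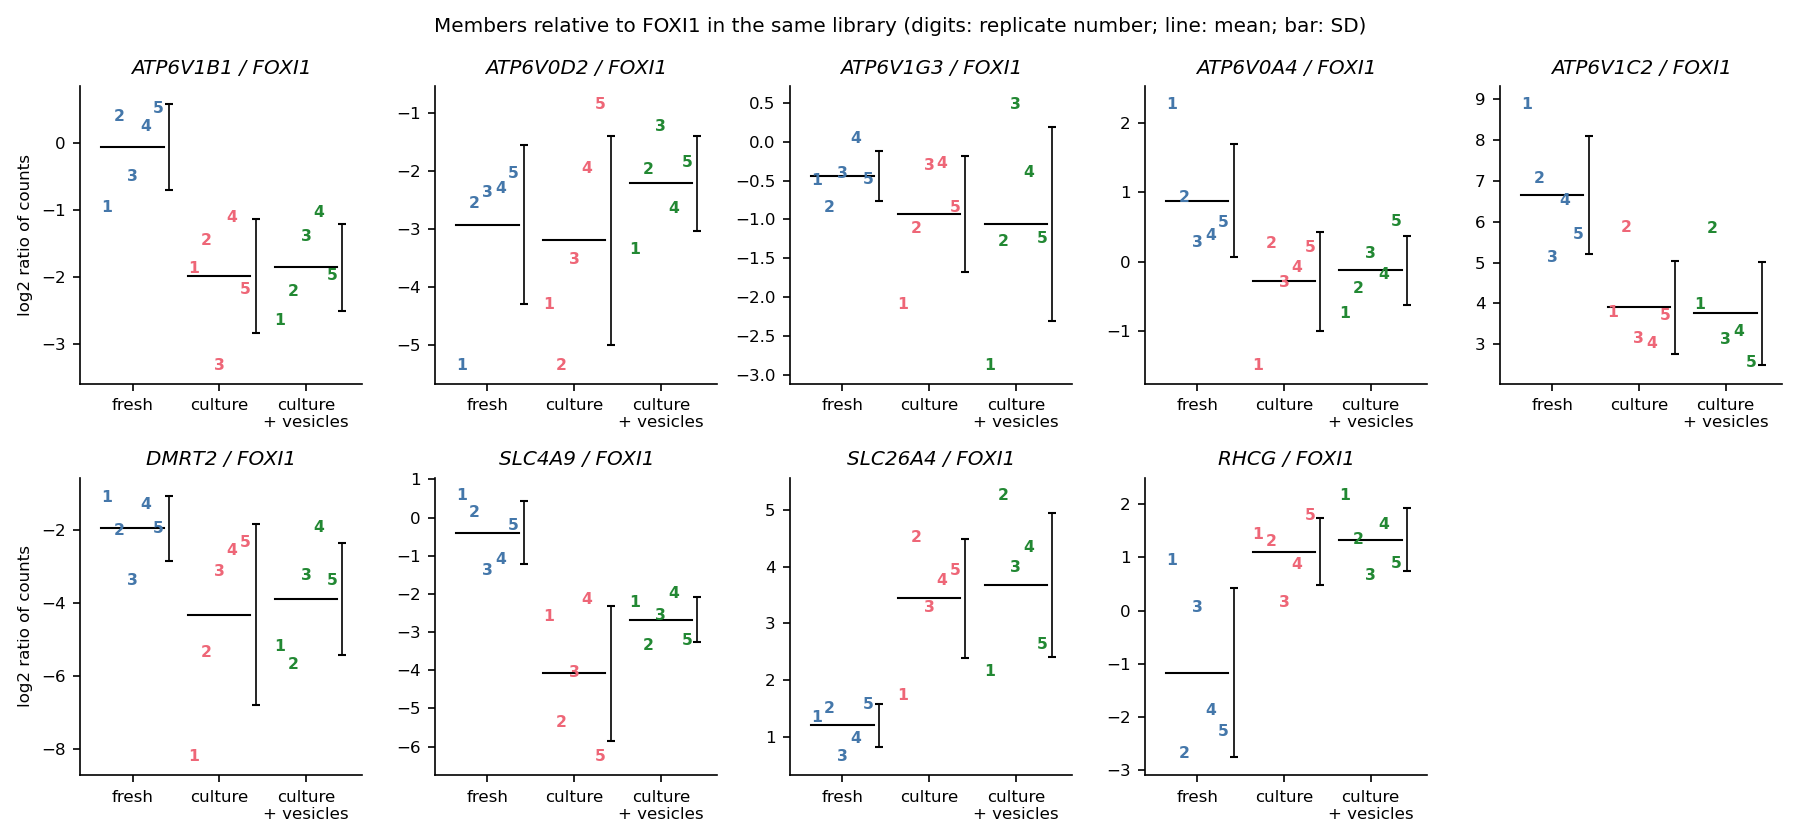
Log2 ratio of the counts of each member to those of FOXI1 in the same library (vertical axis, log2), by group; digits are replicate numbers, lines means and bars SDs (n = 5). Fresh and cultured libraries do not overlap for ATP6V1B1, SLC4A9 and SLC26A4, and the mean SLC26A4 ratio rises from 1.20 in fresh tissue to 3.44 in culture and 3.67 in vesicle culture.

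Most members went up and down together from library to library. After each group's mean was taken away, all 21 pairs among ATP6V1B1, ATP6V0D2, ATP6V1G3, ATP6V0A4, FOXI1, DMRT2 and SLC4A9 correlated positively over the 15 libraries, with a median Pearson's r of 0.764 and a range of 0.426 to 0.863. With SLC26A4 and RHCG added, 35 of 36 pairs were positive (median 0.682). Same-numbered libraries of different groups resembled each other, so the 15 points are not independent, and the values are given as a description.

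The same libraries stood at the ends again and again. Fresh 1 was the lowest fresh library for 8 of the 10 genes, vesicle culture 2 the lowest vesicle culture for 8, culture 2 the lowest culture or tied for 8, and culture 4 the highest culture for 8. Fresh 1 had 21972071 counts in all, within the 17751507 to 24841100 of the fresh libraries. Summed fibroblast markers were highest of their group in culture 2 (12584 CPM) and vesicle culture 2 (9205.1 CPM). In fresh tissue they were highest in fresh 2 (1804.5 CPM), not in fresh 1. The part of cell content in these low values was not tested.

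ATP6V1C2 did not follow the others. It was highest in fresh 1, where the other pump subunits were at their lowest. Its correlation with the other members, less the group means, was positive in 1 of 9 pairs, with a median of -0.36 and a range of -0.55 to 0.23. With PDIA6 it was -0.23 on the same measure. In counts, the fresh libraries held 4602 to 9571 for ATP6V1C2 and at most 320 for any other member, the latter for SLC26A4 in fresh 5. Which cells held the ATP6V1C2 transcripts was not tested.

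**Figure D5:**
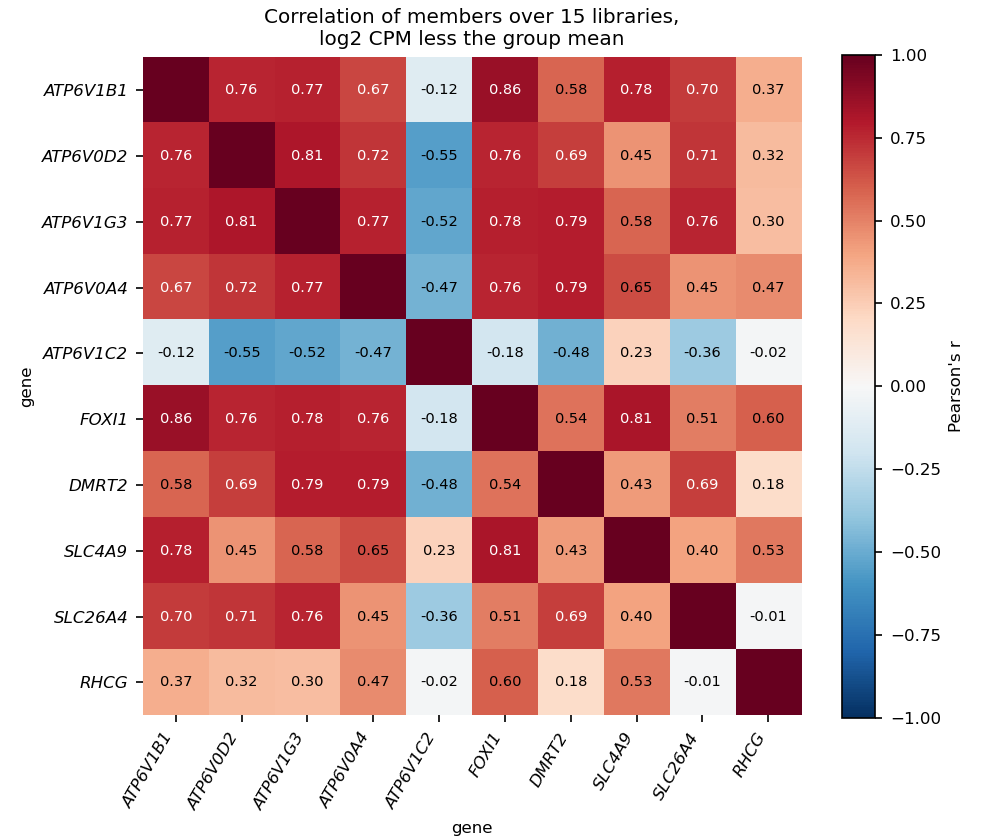
Pearson's r between the 10 genes over 15 libraries, on log2 CPM less the group mean (colour scale from -1 to 1, blue negative and red positive). The row of ATP6V1C2 is mostly negative, from -0.55 to 0.23, while ATP6V1B1 and FOXI1 reach 0.86.

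Among 14151 other tested genes with a symbol, the level of HEPACAM2 followed that of ATP6V1B1 most closely over the 15 libraries (r = 0.930), ahead of CDKL4 (0.891), INSRR (0.875), STAP1 (0.875) and ANGEL1 (0.869). Less the group means, the order was DYNC2H1 (0.896), HEPACAM2 (0.894), CDKL4 (0.853), SERINC2 (0.849) and ZNF514 (0.839). HEPACAM2, INSRR and STAP1 belong to the list of genes that mark clear cells, intercalated cells or ionocytes. HEPACAM2, a surface protein, was at 0.307, 1.57, 5.81, 4.91 and 5.26 CPM in fresh 1 to 5 and 0.945, 0.137, 0.363, 2.16 and 0.580 CPM in culture 1 to 5, with fresh 1 again the lowest fresh library and culture 4 the highest culture. It fell by 2.07 on the log2 scale in culture (SE 0.75, adjusted p = 0.0290). That call was lost without fresh 3, 4 or 5 or culture 2, 3 or 5 (adjusted p up to 0.0688) and with limma-voom (0.258).

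Of that identity list, 12 genes were tested, HEPACAM2, INSRR and STAP1 among them. In culture 3 rose, 4 fell and 5 were not called (median -0.71), where 54.3% of all tested genes were called. In vesicle culture 4 rose and 4 fell (median -0.02), against 52.9% of all genes. Without fresh 3, vesicle culture 1 or vesicle culture 2, 5 in all were called there (48.2% to 49.1% of all genes). INSRR, the insulin receptor-related receptor that senses alkali, fell by 1.67 ± 0.41 (SE, adjusted p = 0.00306) and STAP1, a signalling adaptor, by 1.98 ± 0.56 (adjusted p = 0.00775) on the log2 scale. CFTR, the chloride channel, rose by 1.51 ± 0.20 (adjusted p = 1.36e-05) and TMEM61 by 2.04 ± 0.58 (adjusted p = 0.00767). STAP1 in vesicle culture was -1.55 (adjusted p = 0.0278) and lost its call without fresh 3, fresh 5, vesicle culture 1 or vesicle culture 2 (0.0570 to 0.0718). TMEM61 lost it there without vesicle culture 5 (0.0609).

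The rest of the pump was measured on 20 further subunits, which every cell uses in some combination to acidify its organelles. In culture 5 rose, 5 fell and 10 were not called (median -0.06), where 54.3% of all tested genes were called. In vesicle culture 6 rose and 5 fell (median 0.00), against 52.9% of all genes. Without culture 3, 13 were called in culture (59.9% of all genes). The largest rise belonged to TCIRG1, the a3 subunit best known from the osteoclast, at 2.22 ± 0.28 in culture (adjusted p = 8.84e-06) and 1.87 ± 0.27 in vesicle culture (adjusted p = 3.94e-05). It stood at 4.73 to 6.78 CPM in fresh libraries and 15.1 to 46.8 CPM in cultured ones, without overlap, and was highest in culture 3. Of 7 tested macrophage and osteoclast markers 4 rose in culture, CD14 by 3.61 ± 0.40 (adjusted p = 2.84e-06) and CD68 by 4.30 ± 0.54 (adjusted p = 9.92e-06) on the log2 scale. The other markers did not all follow. CSF1R, the macrophage growth factor receptor, was at -0.73 ± 0.37 (SE, adjusted p = 0.109) in culture and lower in 5 of 5 same-numbered pairs (adjusted p = 0.0383 without culture 2), and it fell by 1.16 ± 0.38 in vesicle culture (adjusted p = 0.0167). CD163, a scavenger receptor of macrophages, was at -0.08 ± 0.63 (adjusted p = 0.924) and ADGRE1 at 1.25 ± 0.64 (adjusted p = 0.109) in culture. In vesicle culture 5 of the 7 markers rose, 1 fell and 1 was not called. ADGRE1 was among the 5 (1.24 to 2.04 with 1 library left out), and CD163 was the gene not called (-1.445 to -0.526). The summed level of all 9 such markers was 49.2 to 73.3 CPM in fresh tissue, where 2 (OCSTAMP and DCSTAMP) were at 0, and 194 to 236 CPM in culture. Most of the sum in culture was ACP5 (52.45 to 114.7 CPM) and CTSK (51.91 to 94.82 CPM), so it says little of the other markers. Of 4 tested lymphocyte markers, 3 were called lower in culture. The part of macrophages or osteoclast-type cells in the TCIRG1 rise was not tested.

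Subunits that fell in culture included ATP6V1G2, the G isoform of neurons, by 2.14 ± 0.39 (adjusted p = 2.63e-04), ATP6V0E2, a small V0 subunit, by 1.52 ± 0.15 (adjusted p = 1.26e-06), and the accessory subunit ATP6AP1 by 1.06 ± 0.13 (adjusted p = 7.60e-06) on the log2 scale. All 3 lay below the fresh range in every cultured library. The partners ATP6V1B2 (0.08 ± 0.17, adjusted p = 0.714), ATP6V1C1 (0.25 ± 0.21, 0.332) and ATP6V0A2 (0.26 ± 0.16, 0.194) were not called in culture. Without culture 3 all 3 passed, at adjusted p of 0.0294, 1.23e-04 and 0.0185. ATP6V1G1 fell by 0.46 ± 0.11 (adjusted p = 0.00278), and ATP6V0D1 by 0.37 ± 0.12 (adjusted p = 0.0197), the latter call lost without fresh 3 (0.0510), without fresh 5 (0.0528) or with no filter (0.0629).

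Factors that assemble the pump, or join its domains again after they part, gave 1 rise, 4 falls and 5 genes not called among 10 tested in culture (median -0.45), and 2 and 4 in vesicle culture. Of all tested genes, 54.3% were called in culture and 52.9% in vesicle culture. The RAVE subunit ROGDI fell by 1.69 ± 0.22 (adjusted p = 1.23e-05), the V0 assembly factor CCDC115 by 0.64 ± 0.12 (adjusted p = 3.77e-04) and OXR1, a TLDc-domain protein, by 1.03 ± 0.23 (adjusted p = 0.00136). DMXL2, another RAVE subunit, rose by 2.60 ± 0.49 (adjusted p = 3.52e-04). Each stood outside the fresh range in all 5 libraries of both cultures.

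Partners in acid and base transport showed the widest spread of fold changes. Of 13 tested, 5 rose and 3 fell in culture (median 0.01), where 54.3% of all tested genes were called. In vesicle culture 4 rose and 3 fell (median -0.04), against 52.9% of all genes. SLC26A7, a chloride and bicarbonate exchanger of acid-secreting cells, was at 276, 100, 233, 179 and 212 CPM in fresh 1 to 5 and at 0 to 1.54 CPM in culture, a fall of 7.91 ± 0.66 on the log2 scale (adjusted p = 1.81e-07). SLC26A7 was highest in fresh 1, where ATP6V1B1 was at its lowest in fresh tissue (0.439 CPM). AQP6, an anion-conducting aquaporin of intercalated cell vesicles, was at 28.5 CPM in fresh 1, within its fresh range of 21.2 to 33.5 CPM. Which cells held these 2 transcripts was not tested. AQP6 fell in culture by 5.97 ± 0.51 (adjusted p = 2.18e-07). CA2, the cytosolic carbonic anhydrase that is abundant in clear cells, went the other way. It was at 0.527 to 1.91 CPM in fresh tissue, 7.22 to 52.5 CPM in culture and 15.8 to 56.2 CPM in vesicle culture, a rise of 4.42 ± 0.54 (adjusted p = 6.80e-06) and 4.64 ± 0.54 (adjusted p = 4.49e-06). The membrane-bound carbonic anhydrase CA12 rose by 1.17 ± 0.29 (adjusted p = 0.00322) and the voltage-gated proton channel HVCN1 by 1.41 ± 0.21 (adjusted p = 4.76e-05). Of the markers given above, 7 of 7 basal cell markers and 4 of 7 macrophage markers were called higher in culture, and their part in the CA2 rise was not tested.

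Notch signalling separates FOXI1-positive cells from their neighbours in several epithelia. Of 13 tested pathway genes 9 rose, 1 fell and 3 were not called in culture (median 1.28), and 8 rose and 2 fell in vesicle culture (median 1.10). Over all tested genes, 28.7% were called higher in culture and 27.4% in vesicle culture. The target genes HES1 (3.54 ± 0.21, adjusted p = 9.80e-09) and NRARP (2.74 ± 0.22, adjusted p = 1.34e-07) rose, as did the ligands DLL4 (3.08 ± 0.39, adjusted p = 1.03e-05) and JAG1 (2.24 ± 0.21, adjusted p = 6.24e-07). Each was higher in all 10 cultured libraries than in any fresh one. The other ligands listed did not rise. In culture DLL1 fell (-1.425 ± 0.41, adjusted p = 0.0089) and JAG2 was not called (-0.54 ± 0.33, adjusted p = 0.172). Of 4 endothelial markers, whose cells use DLL4 and JAG1, 3 were called higher in culture (1 without fresh 2). Their summed level was 388 to 601 CPM against 236 to 307 CPM in fresh tissue. PECAM1 was the largest part of it, at 121.9 to 204.4 CPM in fresh tissue and 197.9 to 550.4 CPM in culture. VWF did not follow, at 48.95 to 114.2 CPM in fresh tissue and 15.75 to 154 CPM in culture. The part of endothelial cells was not tested.

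Lysosomes use the pump in every cell. Among 16 lysosomal genes 3 rose, 5 fell and 8 were not called in culture (median -0.18), where 54.3% of all tested genes were called. In vesicle culture 3 rose and 4 fell, against 52.9% of all genes. The protease CTSB rose by 1.77 ± 0.16 (adjusted p = 4.56e-07), while the membrane proteins LAMP2 (-3.06 ± 0.35, adjusted p = 3.80e-06) and LAMP1 (-0.72 ± 0.14, adjusted p = 6.56e-04) fell.

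Whether caput vesicles change the corpus explants is the question the study's design text states. None of the 10 genes passed in vesicle culture against culture, nor did any of the 18038 tested genes (0%), with DESeq2 and limma-voom also at 0. At an unadjusted p under 0.05, edgeR gave 183 genes, DESeq2 269 and limma-voom 237, and no member was among edgeR's. Each number is below a share of 0.05 of the 18038 tests, the share that no difference at all would give. With the replicate number as a block, edgeR gave 206 such genes and 0 that passed. The tightest interval was that of ATP6V1C2, -0.08 with 95% limits of -0.75 and 0.60. FOXI1 was at -0.08 (-1.26 to 1.10), SLC26A4 at 0.23 (-0.83 to 1.30), and ATP6V0A4 at 0.29 (-0.75 to 1.33). RHCG, at 0.30 (-1.12 to 1.72), was higher with vesicles in 5 of 5 same-numbered pairs, and so was the ratio of SLC4A9 to FOXI1, by 1.41 on the log2 scale (exact permutation p adjusted over 27 tests 0.257). Intervals for the low-count genes ran from -1.64 to 2.11 for SLC4A9 and from -2.07 to 2.23 for DMRT2.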

How the data were processed

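The authors deposited 1 table of raw read counts per gene for 15 libraries. Per the labels' protocols, total RNA (RNAeasy, Qiagen) went into stranded TruSeq mRNA libraries. StringTie 2.1.3b, Bowtie2 2.3.4.1, HISAT2 2.1.0 and Trimmomatic 0.38 appear, without roles, in the submitters' processing notes. Genome build, counting program and strand setting were not given in the sources used here.

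Gene IDs were matched to RefSeq names (assembly F.catus_Fca126_mat1.0), used for names and overlaps only. Counts were filtered with filterByExpr (minimum count 10, minimum total 15), scaled by TMM and tested in R 4.3.3 with edgeR 4.0.16 (quasi-likelihood test, 2-sided, group only, 15 libraries, 12 residual degrees of freedom), with Benjamini-Hochberg adjustment over 18038 genes. CPM are counts scaled to the effective library size. Count ratios had a pseudocount of 0.5 and exact 2-sided permutation tests (SciPy 1.17.1). Scripts were tested on simulated data. Limits for 0 counts were set at 3 counts and cover counting error only.

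Same-numbered libraries deviated together between vesicle culture and fresh tissue (r = 0.242 to 0.362) and between the cultures (0.181 to 0.602), so there the value with the number as a block is given where it changes a call. Between culture and fresh tissue 1 of 5 pairs, that of culture 3, was at 0.033 and the others at 0.198 to 0.344. The block is given there among the alternatives. The reported fits carry no block.

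The 10 members and the 16 lists, in which CTSL and KRT14, among others, had no match, were chosen with earlier results of these data known. Named genes are the members, their partner isoforms with ATP6V0A2 and TCIRG1, CA2, CA12, up to 4 genes with the smallest adjusted p in culture from each list described by its genes (1 of them is not reported here), and the 5 genes most like ATP6V1B1 on each measure. HEPACAM2, PDIA6, TMEM213 and the LOC genes follow from likeness or overlap, and OCSTAMP and DCSTAMP were named for their 0 counts. Marker lists of other cell types are given by counts and summed levels. CSF1R, CD163, ADGRE1, ACP5, CTSK, PECAM1, VWF, DLL1 and JAG2 were named after their values were seen. Alternatives were DESeq2 1.42.0, limma-voom 3.58.1 with sample weights, other scalings and filters, only 2 groups, a replicate block, another pseudocount and each library left out.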

Additional observations from a re-analysis of the deposited data

Results flagged for a closer look

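A library counted as far from the others of its group of 5 where its gap to the nearest one, over the group's range, was above 0.71. Over the 69 groups of values examined, chance gives about 1 such case in 20. FOXI1 in vesicle culture 2 was at 0.232 log2 CPM, the others at 1.73 to 2.34. ATP6V0D1 in fresh 4 was at 5.80 log2 CPM, the others at 6.16 to 6.29. ATP6V1C1 in culture 3 was at 4.59 log2 CPM, the others at 5.97 to 6.10. The log2 ratio of ATP6V1B1 to ATP6V1B2 in fresh 1 was -7.47, the others at -4.77 to -3.70, and that of ATP6V0D2 to ATP6V0D1 in fresh 1 was -11.7, the others at -7.28 to -5.82, with 0 counts of ATP6V0D2 in that library. Mitochondrial protein genes took 0.179% of counts in culture 3, and 6.23% to 7.48% in the other culture libraries.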

How the results depend on the processing

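With no filter, or with only the 2 groups fitted, 3 of the 10 genes were called in culture against fresh tissue, where 36.3% and 50% of all genes tested were called. With 1 library left out the number ran from 2 to 6 (49.4% to 59.9% of all genes), and it was 2 without fresh 2 or fresh 5, 3 without fresh 3, fresh 4, culture 1, culture 2, culture 3 or culture 5, and 6 without vesicle culture 2. SLC26A4 and ATP6V1C2 kept their calls in all of these. In vesicle culture against fresh tissue the number ran from 3 to 5 (48.2% to 63% of all genes). The cause of the changes was not tested.

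The replicate number as a block gave 7 calls in culture against fresh tissue, where 57.9% of all genes were called. ATP6V0A4 at -1.18 (edgeR adjusted p = 0.0214) and DMRT2 at -1.92 (0.0414) were added, and 5 fibroblast markers were called in place of 3. In that comparison 4 of 5 libraries deviated most like their own number, and culture 3 was the exception (r = 0.033). In vesicle culture against fresh tissue the block gave 5 calls (57% of all genes), with SLC4A9 added, and it changed no other member's call. FOXI1 in culture turned to -0.163 under the block. For the ratios within a library, a paired exact sign-flip permutation test has 0.063 as its smallest p and cannot pass, so it says nothing about stability: ATP6V0A4 to ATP6V0A1 stood at -1.98 and -1.94, and ATP6V1C2 to ATP6V1C1 at -2.95 and -3.26 (adjusted p = 0.234).

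Signs turned only in uncalled values. FOXI1 in culture was -0.028 with DESeq2, -0.0259 with relative log expression scaling, -0.0828 with upper-quartile scaling and -0.012 with the filter at 1 CPM, and ATP6V1B2 was -0.018 with upper-quartile scaling. With limma-voom, ATP6V0D2 in culture was 0.26, FOXI1 in vesicle culture 0.27, and between the cultures ATP6V1G3 was 0.028 and RHCG -0.16.

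Leaving out 1 library at a time gave these ranges of log2 values in culture against fresh tissue: ATP6V0D2 -0.80 to 0.21, FOXI1 -0.27 to 0.27, ATP6V1B2 -0.0045 to 0.24, CD163 -0.63 to 0.20. In vesicle culture against fresh tissue they were -0.18 to 0.48 for ATP6V0D2 and -0.32 to 0.16 for FOXI1. Between the cultures they were -0.46 to 0.67 for ATP6V1B1, -0.057 to 0.93 for ATP6V0D2, -0.53 to 0.53 for ATP6V1G3, -0.14 to 0.74 for ATP6V0A4, -0.30 to 0.14 for ATP6V1C2, -0.33 to 0.19 for FOXI1, -0.80 to 1.03 for DMRT2, -0.082 to 1.06 for SLC4A9, -0.14 to 0.75 for SLC26A4 and -0.13 to 0.65 for RHCG.

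The ratios ranged, in culture and in vesicle culture against fresh tissue, from -2.62 to -1.68 and -2.63 to -1.54 for the B pair, -1.02 to 1.06 and -0.11 to 1.37 for the d pair, -0.54 to 0.42 and -0.49 to 0.43 for the G pair, -2.23 to -1.66 and -2.32 to -1.53 for the a pair, and -3.13 to -2.67 and -3.46 to -3.08 for the C pair. Between the cultures they were -0.30 to 0.45 for the B pair, -0.085 to 1.49 for the d pair, -0.45 to 0.51 for the G pair and -0.34 to 0.45 for the a pair. ATP6V0D2 to FOXI1 in culture ranged from -0.88 to 0.27.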
